A study of Mus musculus with 6 samples.

Results

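The genes described here build triglyceride, break it down, or coat the lipid droplet in which fat cells store it. They are 10 genes, taken by name from a count table of 24984 genes, and all 10 passed the filter on low counts, which 14065 genes passed. Of these, 5 encode enzymes of triglyceride synthesis (Gpam, Agpat2, Lpin1, Dgat1 and Dgat2), 3 encode lipases that break triglyceride down (Pnpla2, Lipe and Mgll), and 2 encode proteins of the droplet surface (Plin1 and Cidec). RNA was sequenced in bulk from mouse inguinal white adipose tissue, which lies under the skin. The Mpst KO HFD group held 3 libraries from Mpst knockout mice on a high-fat diet, and the WT HFD group held 3 libraries from wild-type mice on the same diet. Mpst encodes a sulfurtransferase that makes hydrogen sulfide. The comparison addresses how this fat differs when Mpst is missing. Age, sex, strain, time on the diet, the design of the Mpst allele and the tissues in which it acts were not given in the sources used here. Nothing in the labels says that replicates were separate animals, so p-values reflect only the spread among these libraries, and that spread may be technical.

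In adipocytes, fatty acids are added to glycerol phosphate in steps. The acyltransferase encoded by Gpam adds the first, the one encoded by Agpat2 adds the next, the lipin phosphatase removes the phosphate, and the diacylglycerol acyltransferases add the last. Breakdown runs through adipose triglyceride lipase (Pnpla2), hormone-sensitive lipase (Lipe) and monoacylglycerol lipase (Mgll), each of which removes a fatty acid in turn, and it is set going by adrenergic signals through protein kinase A. Perilipin 1 (Plin1) guards the droplet surface and holds back the lipases until it is phosphorylated, and Cidec moves lipid from small droplets into large ones.

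Libraries held 8054560 to 22458630 counts in genes, with Mpst KO HFD replicate 1 the shallowest. Levels are given as CPM, counts divided by the normalised library size in units of 1e6. Mpst itself had 0.358, 0.440 and 0.382 CPM in the Mpst KO HFD libraries, against 83.2, 84.7 and 75.4 CPM in the WT HFD libraries, so every library matched its label. Defining transcripts of adipocytes were present in every library. The summed level of 10 adipocyte markers was 32752 to 41630 CPM in Mpst KO HFD libraries and 51904 to 60341 CPM in WT HFD libraries, and the summed level of 12 macrophage markers was 1780 to 1905 CPM in Mpst KO HFD libraries and 527 to 1033 CPM in WT HFD libraries. None of these markers was at 0 in all libraries, and 7 of the 12 macrophage markers rose. Among the 10 adipocyte markers, 2 fell (Retn and Cfd) and 8 did not pass, with 8 log2 fold changes below 0 and 2 above. Fabp4 made up most of the adipocyte sum, with a mean of 24571 CPM in Mpst KO HFD and 32409 CPM in WT HFD. Summed markers of fibroblasts and progenitors were at 4330.1 to 5380 CPM in Mpst KO HFD libraries and 2845 to 3806 CPM in WT HFD libraries. In that list of 7 genes, 5 had log2 fold changes above 0 and 2 below (Dpp4 and Pi16). Those of endothelium were at 851 to 1030.0 CPM in Mpst KO HFD libraries and 707 to 736 CPM in WT HFD libraries, and those of lymphocytes at 15.9 to 31.0 CPM in Mpst KO HFD libraries and 12.3 to 14.2 CPM in WT HFD libraries. None of the 8 lymphocyte markers passed, and each overlapped between the groups. Cd8a was at 9.59 CPM in Mpst KO HFD replicate 3, against 1.79 and 1.98 CPM in replicates 1 and 2. Brown adipocyte markers summed to 71.5 to 106 CPM in Mpst KO HFD libraries and 124 to 199 CPM in WT HFD libraries. In that list of 5 genes, 3 had log2 fold changes below 0, and only Cox8b fell (−1.02, edgeR adjusted p = 0.0244). Ucp1 (1.78, edgeR adjusted p = 0.160) and Dio2 (0.80, 0.200) lay above 0 without passing. Hepatocyte markers summed to 10.6 to 15.0 CPM in Mpst KO HFD libraries and 34.7 to 49.7 CPM in WT HFD libraries. Alb made up most of that sum and fell (log2 fold change −2.06, edgeR adjusted p = 0.0119). Serpina1a lay above 0 without passing (0.15, edgeR adjusted p = 0.806), and Apoa1 and Ttr were too low to be tested. Of 9 epithelial and mammary markers, Krt14, Csn2, Csn3 and Wap were at 0 throughout, and the sum was 0.954 to 1.32 CPM in Mpst KO HFD libraries and 0.511 to 0.851 CPM in WT HFD libraries. Skeletal muscle transcripts stood apart in 2 libraries, with 10 markers summing to 2292 CPM in Mpst KO HFD replicate 3 and 983 CPM in WT HFD replicate 2, against 47.0 to 150.8 CPM in the other 4 libraries. The part of these cell types in the results was not tested, and in bulk tissue fewer cells of a type and less RNA per cell cannot be told apart.

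The transcript of hormone-sensitive lipase, Lipe, fell in Mpst KO HFD fat, to 1517 ± 143 CPM, against 2460.0 ± 338 CPM in WT HFD fat (SD, n = 3 each). The other lipases, Pnpla2 and Mgll, lay below WT HFD in every Mpst KO HFD library but did not pass the test, and no synthesis enzyme or droplet protein passed. Of the 10 genes, 1 fell, none rose and 9 did not pass edgeR's quasi-likelihood test at an adjusted p under 0.05. Over all genes tested the share that fell was 2.65% and the share that rose 4.76%. The median log2 fold change was −0.70 over the 3 lipases, −0.10 over the 5 synthesis enzymes and −0.19 over the 2 droplet proteins, beside 0.0052 over all genes tested. Libraries of the groups did not overlap for 5 of the 10 genes, 4 lower and 1 higher in Mpst KO HFD. Over all genes tested the groups did not overlap in 15.5% with lower and 17.8% with higher levels in Mpst KO HFD.

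Among the lipases, Lipe, whose product is the main diacylglycerol hydrolase of fat cells, is on the minus strand of chromosome 7 from 25379527 to 25398710 (GRCm38, the assembly behind mm10). Its level was 1656, 1525 and 1370.3 CPM in the Mpst KO HFD libraries, against 2075, 2597 and 2708 CPM in the WT HFD libraries. Every Mpst KO HFD library was below every WT HFD library. The log2 fold change was −0.70 (SE 0.17, 95% interval −1.07 to −0.32, edgeR adjusted p = 0.0415). The call was lost without Mpst KO HFD replicate 1, 2 or 3 (edgeR adjusted p = 0.117, 0.127 and 0.140) and without WT HFD replicate 2 (0.162), with log2 fold changes of −0.77, −0.70, −0.63 and −0.66. In those 4 fits the genes that rose and fell over the whole table numbered 41 and 5, 1 and 1, 1 and 2, and 0 and 1. Without the 2 libraries rich in muscle transcripts, which leaves 2 libraries a group, Lipe had a log2 fold change of −0.59 (edgeR adjusted p = 0.362). With libraries scaled to adipocyte transcripts it was −0.42 (edgeR adjusted p = 0.132). An antisense gene, 4732471J01Rik, shares 918 exon bases with Lipe, and the library kit does not mark strand. Its level averaged 2.73 ± 1.60 CPM in Mpst KO HFD and 4.07 ± 1.39 CPM in WT HFD. Exons on the opposite strand also overlap Agpat2 (Egfl7, 64 bases) and Mgll (Gm26588, 167 bases, not counted in these data). Egfl7 averaged 292 ± 18.4 CPM in Mpst KO HFD and 376 ± 62.3 CPM in WT HFD.

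Pnpla2, whose product starts triglyceride breakdown, is on the plus strand of chromosome 7 from 141455198 to 141460743. It stood at 1448, 1495 and 1723 CPM in the Mpst KO HFD libraries, against 1851, 2545 and 3286 CPM in the WT HFD libraries. Here too the groups did not overlap, and the WT HFD libraries spread far wider than the Mpst KO HFD libraries. Means were 1555 ± 147 CPM in Mpst KO HFD and 2561 ± 718 CPM in WT HFD (SD, n = 3 each). Its log2 fold change was −0.72 (SE 0.22, 95% interval −1.21 to −0.23), which did not pass over all genes (edgeR adjusted p = 0.0750). It passed without WT HFD replicate 1 (log2 fold change −0.90, edgeR adjusted p = 0.0337) and with DESeq2 (adjusted p = 0.00622), and was −0.49 without WT HFD replicate 3. In the WT HFD libraries, replicate 3 had the highest Pnpla2 and the lowest summed macrophage markers (527 CPM), and replicate 1 had the lowest Pnpla2 and the highest (1033 CPM). In Mpst KO HFD replicates 1, 2 and 3 the macrophage sums lay close together, at 1780, 1905 and 1790.4 CPM. Any relation of Pnpla2 to macrophage markers was not tested. The ratio of Lipe to Pnpla2, chosen after their values were seen, averaged 0.986 ± 0.177 in Mpst KO HFD and 0.989 ± 0.151 in WT HFD, so the values of the groups overlapped. Ratios of genes here and below use counts not corrected for length and are compared only across libraries.

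Mgll, whose product releases the last fatty acid and leaves glycerol, is on the plus strand of chromosome 6 from 88724412 to 88828360. Its level was 1891, 1981 and 1954 CPM in the Mpst KO HFD libraries, against 2398, 2446 and 2102 CPM in the WT HFD libraries. The groups did not overlap, by a narrow margin at WT HFD replicate 3. Its log2 fold change was −0.25 (SE 0.14, 95% interval −0.58 to 0.07, edgeR adjusted p = 0.288), and its interval overlaps those of Lipe and Pnpla2.

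The promoter windows of Lipe and Pnpla2, the genes with the lowest log2 fold changes of the 10, are shown to set their letters side by side. RefSeq windows on GRCm38.p6, from 250 bases before to 50 after a start, were found for 8 of the 10 genes. Dgat1 and Dgat2 had none in the table used here. Lipe had 2 starts in the table used here, and the gene bounds given above reach further upstream than both windows. Gene-level counts do not say which start was in use. Capitals mark matches on either strand to the FOXO core TGTTTAC, the E-box CACGTG, the GC box GGGCGG or the nuclear receptor hexamer AGGTCA, with overlapping matches merged.
Lipe, upstream start, chr7:25395938-25396237, minus strand: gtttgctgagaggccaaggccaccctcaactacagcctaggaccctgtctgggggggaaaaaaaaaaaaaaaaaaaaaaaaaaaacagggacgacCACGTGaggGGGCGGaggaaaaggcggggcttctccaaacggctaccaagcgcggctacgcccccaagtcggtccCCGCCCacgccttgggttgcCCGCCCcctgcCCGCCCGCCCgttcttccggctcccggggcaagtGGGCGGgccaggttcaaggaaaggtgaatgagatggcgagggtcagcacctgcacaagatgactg
Lipe, downstream start, chr7:25390063-25390362, minus strand: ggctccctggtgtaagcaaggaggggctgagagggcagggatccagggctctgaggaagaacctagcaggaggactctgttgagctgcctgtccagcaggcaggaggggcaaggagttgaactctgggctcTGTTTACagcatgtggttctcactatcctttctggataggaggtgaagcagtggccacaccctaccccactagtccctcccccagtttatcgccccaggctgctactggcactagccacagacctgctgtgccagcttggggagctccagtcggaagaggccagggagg
Pnpla2, chr7:141454938-141455237, plus strand: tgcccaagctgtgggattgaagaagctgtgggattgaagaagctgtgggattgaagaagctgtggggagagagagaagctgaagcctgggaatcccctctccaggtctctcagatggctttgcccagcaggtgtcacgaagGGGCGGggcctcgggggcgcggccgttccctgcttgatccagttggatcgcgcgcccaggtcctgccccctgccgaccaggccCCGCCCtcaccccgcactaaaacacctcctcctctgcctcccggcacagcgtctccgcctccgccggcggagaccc
The upstream Lipe window held 6 GC boxes and 1 E-box, the downstream window held 1 FOXO core and no GC box, and the Pnpla2 window held 2 GC boxes. Of 32851 promoter windows, 35.7% held a GC box, 7.15% an E-box, 3.65% a FOXO core and 16.3% the hexamer. No motif of the 4 was in all 3 windows. These matches describe letters and are not binding sites.

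The 5 synthesis enzymes had log2 fold changes of both signs, 3 below 0 and 2 above, and none passed. Gpam, the mitochondrial acyltransferase of the first step (chromosome 19, 55067268 to 55127238, minus strand), stood at 106.7, 106.4 and 91.9 CPM in the Mpst KO HFD libraries, against 115, 113 and 117 CPM in the WT HFD libraries. All Mpst KO HFD libraries were lower, by little. The log2 fold change was −0.18 (SE 0.11, edgeR adjusted p = 0.332). Agpat2 (chromosome 2, 26593057 to 26604417, minus strand), whose loss causes congenital lipodystrophy in humans, stood at 921, 1057 and 771 CPM in the Mpst KO HFD libraries, against 990.2, 879 and 604 CPM in the WT HFD libraries. These groups overlapped, with WT HFD replicate 3 the lowest of all. The log2 fold change was 0.15 (SE 0.21, edgeR adjusted p = 0.676), and −0.02 without that library. Lpin1, a phosphatidate phosphatase (chromosome 12, 16535669 to 16610966, minus strand), stood at 209, 272 and 286 CPM in the Mpst KO HFD libraries, against 246, 258 and 318 CPM in the WT HFD libraries. Its groups overlapped as well, and its log2 fold change of −0.10 (SE 0.16, edgeR adjusted p = 0.734) was 0.02 without Mpst KO HFD replicate 1 and 0.03 without WT HFD replicate 3.

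The enzymes of the last step had opposite signs. Dgat1 (chromosome 15, 76502015 to 76511953, minus strand), which sits in the endoplasmic reticulum and also re-esterifies fatty acids set free by lipolysis, stood at 302, 377 and 289 CPM in the Mpst KO HFD libraries, against 381, 398 and 375 CPM in the WT HFD libraries. Mpst KO HFD replicate 2 lay just above the lowest WT HFD library, so the groups overlapped. The log2 fold change was −0.26 (SE 0.14, 95% interval −0.57 to 0.06, edgeR adjusted p = 0.271). Dgat2 (chromosome 7, 99153658 to 99182719, minus strand), which is not related to Dgat1 in sequence and also acts at the droplet surface, stood at 3504, 3155 and 3153 CPM in the Mpst KO HFD libraries, against 3140.1, 2867 and 2056 CPM in the WT HFD libraries. The groups did not overlap, but the lowest Mpst KO HFD library and WT HFD replicate 1 were almost level. Its log2 fold change was 0.28 (SE 0.19, 95% interval −0.15 to 0.71, edgeR adjusted p = 0.366), and 0.13 without WT HFD replicate 3. For neither gene did the difference exceed the spread between replicates by this test.

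Both droplet proteins overlapped between the groups. Plin1 (chromosome 7, 79720218 to 79732903, minus strand) stood at 874, 793 and 920 CPM in the Mpst KO HFD libraries, against 820, 1138 and 1263 CPM in the WT HFD libraries. WT HFD replicate 1 lay within the Mpst KO HFD range. The log2 fold change was −0.32 (SE 0.18, 95% interval −0.73 to 0.09, edgeR adjusted p = 0.291). Cidec (chromosome 6, 113424634 to 113435760, minus strand) stood at 3813, 4035 and 3713 CPM in the Mpst KO HFD libraries, against 3778, 4619 and 3631 CPM in the WT HFD libraries. These ranges overlapped throughout, and the log2 fold change was −0.06 (SE 0.16, 95% interval −0.43 to 0.31, edgeR adjusted p = 0.853). It was 0.06 without WT HFD replicate 2.

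**Figure D1:**
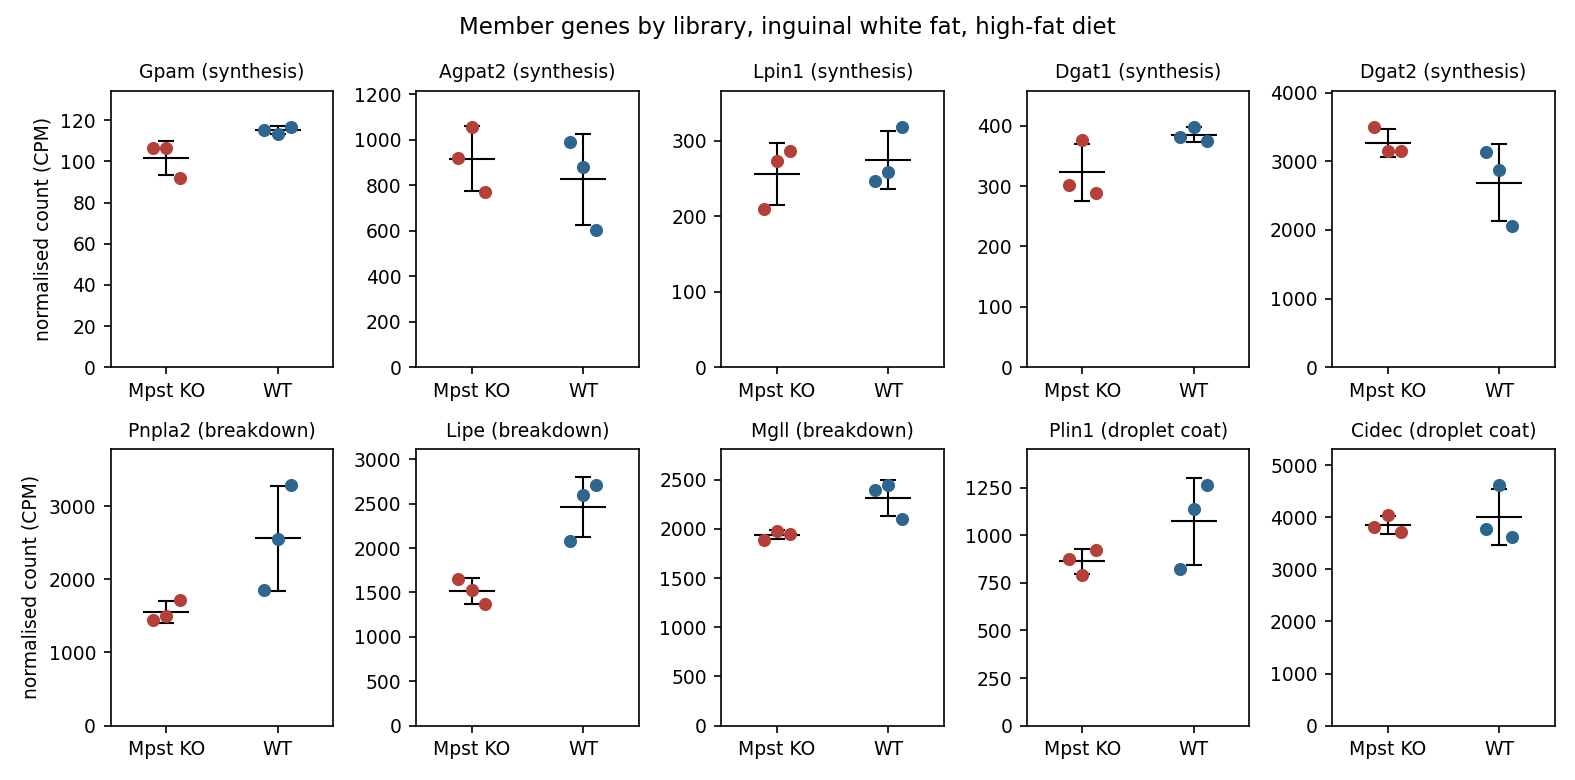
Normalised counts (CPM, linear axis from 0) of the 10 genes, with Mpst KO to the left of WT. Points are libraries in the order of replicates 1 to 3, and bars give the mean and SD (n = 3 each). For Pnpla2, Lipe and Mgll every Mpst KO point lies below every WT point, while for Agpat2, Lpin1, Dgat1, Plin1 and Cidec the groups overlap.

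The genes differed widely in level once divided by exon length. Per kilobase of merged exons, Cidec had the highest level in both groups, 2076 ± 88.9 CPM per kilobase in Mpst KO HFD and 2160.2 ± 287 in WT HFD (SD, n = 3 each). Gpam had the lowest, 15.3 ± 1.27 in Mpst KO HFD and 17.3 ± 0.288 in WT HFD. In Mpst KO HFD libraries Dgat2 was second (1061 ± 65.6) and Pnpla2 the third (515 ± 48.7), without overlap. In WT HFD libraries Dgat2 (872 ± 183) and Pnpla2 (848 ± 238) overlapped, so their order there is not resolved. Agpat2 overlapped Pnpla2 above it and Mgll below it in Mpst KO HFD, and in WT HFD the neighbours Mgll, Lipe and Agpat2 overlapped in turn. In both groups Plin1, Dgat1, Lpin1 and Gpam followed in that order, with no overlap between neighbours.

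Synthesis was then set against breakdown within each library. The mean log2 level of the 3 lipases, relative to the WT HFD mean, was −0.54, −0.55 and −0.54 in the Mpst KO HFD libraries, against −0.20, 0.07 and 0.14 in the WT HFD libraries. For the 5 synthesis enzymes it was −0.05, 0.10 and −0.10 in the Mpst KO HFD libraries, against 0.08, 0.04 and −0.11 in the WT HFD libraries. The lipase means did not overlap between groups, and the synthesis means did. Each of the 3 lipases alone was lower without overlap, so their mean could not overlap. Among single genes, Mgll (log2 fold change −0.25) lay level with the synthesis gene Dgat1 (−0.26). The difference, mean log2 CPM of synthesis enzymes minus that of lipases, was −1.83, −1.68 and −1.88 in the Mpst KO HFD libraries, against −2.04, −2.35 and −2.58 in the WT HFD libraries. It averaged −1.80 ± 0.11 in Mpst KO HFD and −2.33 ± 0.27 in WT HFD (SD, n = 3 each), a gap of 0.53 that carries no test, since its genes were chosen as a set. The gap was 0.40 to 0.67 with each library left out, and 0.53 also with relative log expression factors or scaling to adipocyte transcripts, since by construction a scaling shifts both sides nearly alike. The ratio of Dgat2 to Pnpla2, a pair chosen after values were seen, was 2.42, 2.11 and 1.83 in the Mpst KO HFD libraries, against 1.70, 1.13 and 0.626 in the WT HFD libraries. Dgat2 was higher and Pnpla2 lower in every Mpst KO HFD library than in any WT HFD library, so this ratio had to separate.

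**Figure D2:**
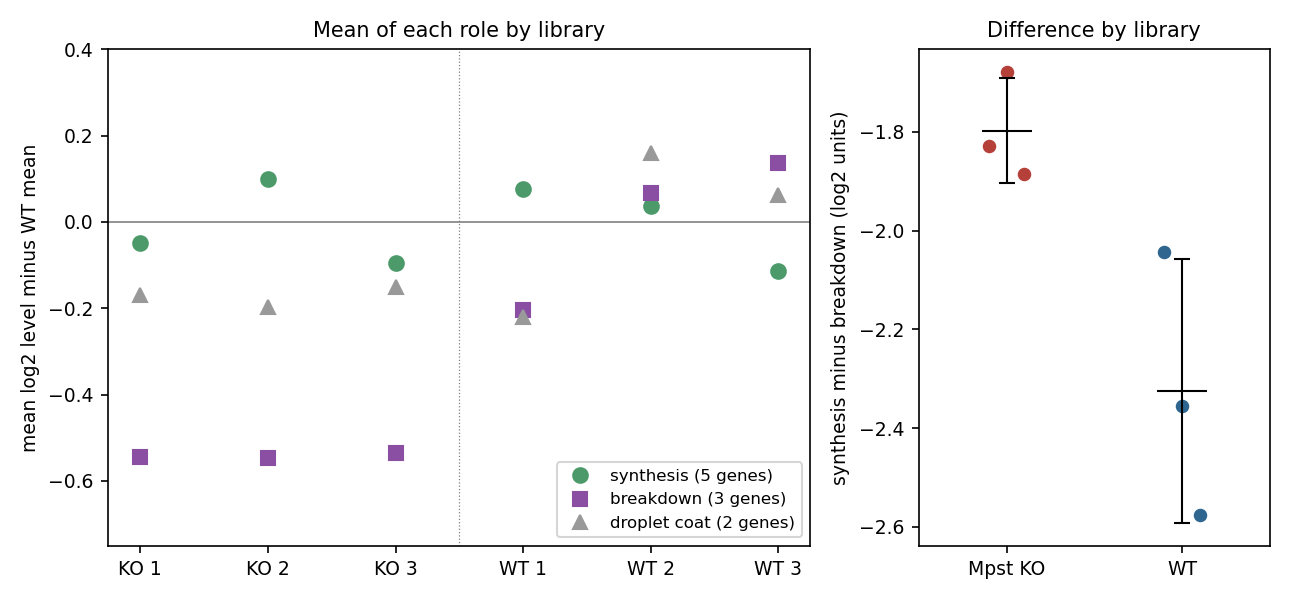
Left, mean log2 level of synthesis, breakdown and droplet genes in each library, minus the WT HFD mean of that set, with Mpst KO libraries to the left of WT libraries. Right, the log2 level of synthesis minus breakdown genes in each library, with mean and SD (n = 3 each). Lipase means lie near −0.54 in all 3 Mpst KO libraries, and the difference is higher in each Mpst KO library than in any WT library.

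The zero of these fold changes depends on what the libraries are scaled to. Scaling to 6 other adipocyte transcripts (Adipoq, Pparg, Cebpa, Slc2a4, Acvr1c and Trarg1) moved the median of all genes to 0.27 and moved the 10 genes up by 0.24 to 0.29, so small negative values had to change sign. None of the 10 passed. On that scale the log2 fold change was −0.42 for Lipe (edgeR adjusted p = 0.132) and −0.43 for Pnpla2 (0.166), which lay furthest below 0 of the 10. Dgat2 was at 0.53 (0.165) and Agpat2 at 0.39 (0.313). Relative to the median of all genes in that fit, Lipe was at −0.69, Pnpla2 at −0.70, Dgat2 at 0.26 and Agpat2 at 0.12. Taking off that median undoes the shift, so by construction these values lie near those with scaling to all transcripts. Gpam, Lpin1, Dgat1, Mgll and Cidec changed sign, with Dgat1 and Mgll at 0.0019 and 0.00061, and the other 5 kept theirs. With scaling to all transcripts, the median over those 6 was −0.34, and none of them passed the test.

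**Figure D3:**
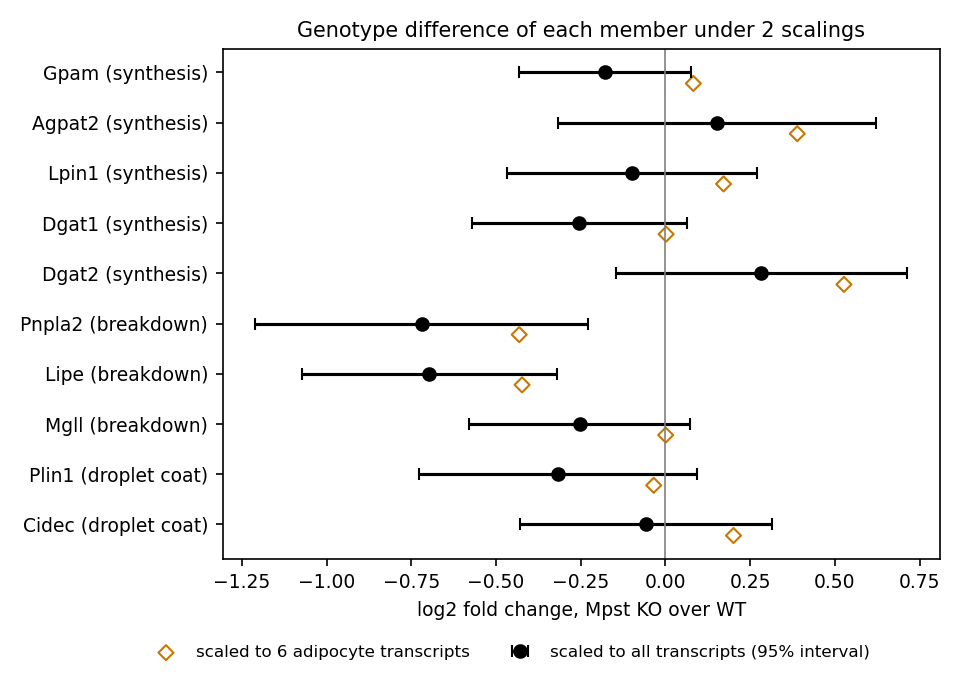
Log2 fold change of Mpst KO over WT for the 10 genes. Filled points with 95% intervals come from scaling to all transcripts, and open diamonds from scaling to 6 adipocyte transcripts. Lipe and Pnpla2 lie furthest to the left on both scales, and the interval of each excludes 0 on the first.

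Other genes of triglyceride storage and release were counted from 4 lists, of which 63 of 66 genes passed the filter. Of those 63, 4 rose and 1 fell, beside 4.76% that rose and 2.65% that fell over all genes tested. Of the 18 other synthesis genes tested, 1 rose and none fell (median log2 fold change 0.06). The gene was Gk, glycerol kinase, which turns glycerol back into glycerol phosphate. It had 20.3, 21.0 and 19.0 CPM in the Mpst KO HFD libraries, against 9.81, 7.23 and 8.91 CPM in the WT HFD libraries (log2 fold change 1.21, SE 0.16, edgeR adjusted p = 0.0128). The highest WT HFD library was below the lowest Mpst KO HFD library. Among the rest, named after their values were seen, Lpin2, a relative of Lpin1, came nearest to the threshold, with 17.0 ± 1.53 CPM in Mpst KO HFD and 12.1 ± 0.739 CPM in WT HFD (SD, n = 3 each, log2 fold change 0.49, edgeR adjusted p = 0.0698) and no overlap of the groups. Mogat1, Agpat3 and Gpat4 had log2 fold changes of −0.60, −0.39 and −0.57 (edgeR adjusted p = 0.0788, 0.0803 and 0.0840), and Acsl1, which activates fatty acids for esterification, 0.39 (0.123).

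Of 12 other breakdown genes, 1 rose and none fell (median −0.29). The list also holds the inhibitor G0s2 (log2 fold change −0.48), so its median does not describe lipases alone. Hilpda (0.62), Fabp4 (−0.40) and Aqp7 (−0.31), named after their values were seen, are in it too and are not lipases. Lipa, the lysosomal acid lipase that degrades lipid taken into lysosomes and is active in macrophages, had 124, 142 and 146 CPM in the Mpst KO HFD libraries, against 72.4, 62.7 and 55.6 CPM in the WT HFD libraries (log2 fold change 1.11, SE 0.14, edgeR adjusted p = 0.0119). Its change was opposite in sign to those of Lipe and Pnpla2, and the part of macrophages in its level was not tested. The partners of adipose triglyceride lipase, named after their values were seen, did not pass. Abhd5, its activator, had a log2 fold change of 0.05 (edgeR adjusted p = 0.816), and G0s2, its inhibitor, −0.48 (0.184), with 604, 617 and 459 CPM in the Mpst KO HFD libraries, against 945, 827 and 564 CPM in the WT HFD libraries. The ratio of Pnpla2 to G0s2 was 2.40, 2.42 and 3.76 in the Mpst KO HFD libraries, against 1.96, 3.08 and 5.83 in the WT HFD libraries, and so overlapped. That of Pnpla2 to Abhd5 was 8.76, 7.42 and 10.1 in the Mpst KO HFD libraries. It was 10.8, 13.6 and 20.5 in the WT HFD libraries, without overlap.

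Of 16 droplet genes other than Plin1 and Cidec, 1 rose and 1 fell (median −0.19). Rab18, a small GTPase found on droplets and in the endoplasmic reticulum, had 114, 117 and 107 CPM in the Mpst KO HFD libraries, against 68.1, 61.6 and 74.4 CPM in the WT HFD libraries (log2 fold change 0.73, SE 0.12, edgeR adjusted p = 0.0161). Tmem159, now called Ldaf1, which works with seipin where droplets form, had 33.1, 35.0 and 35.6 CPM in the Mpst KO HFD libraries, against 43.5, 55.9 and 58.5 CPM in the WT HFD libraries (log2 fold change −0.60, SE 0.14, edgeR adjusted p = 0.0368). For both, the groups did not overlap. Plin2, a droplet coat protein of many cell types including macrophages, was named after its values were seen. It stood at 1014, 1123 and 862 CPM in the Mpst KO HFD libraries, against 704, 703 and 424 CPM in the WT HFD libraries (log2 fold change 0.71, edgeR adjusted p = 0.0750). The ratio of Plin1 to Plin2 was 0.863, 0.706 and 1.07 in the Mpst KO HFD libraries, against 1.17, 1.62 and 2.98 in the WT HFD libraries, so every Mpst KO HFD library was lower.

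Of 17 genes of the signals that switch lipolysis on or off, 1 rose and none fell (median −0.12). Prkacb, a catalytic subunit of protein kinase A, had 52.2, 53.3 and 58.1 CPM in the Mpst KO HFD libraries, against 32.0, 33.8 and 39.1 CPM in the WT HFD libraries (log2 fold change 0.64, SE 0.12, edgeR adjusted p = 0.0246). A further subunit gene, Prkaca, named after its values were seen, had a log2 fold change of −0.10 (edgeR adjusted p = 0.612). Adrb3, the main beta adrenergic receptor of mouse fat cells and likewise named after its values were seen, had 116, 116 and 276 CPM in the Mpst KO HFD libraries, against 214, 419 and 709 CPM in the WT HFD libraries. Its groups overlapped and its log2 fold change of −1.40 had an SE of 0.51 (edgeR adjusted p = 0.135). Calls of Gk, Rab18, Tmem159 and Prkacb were lost without any 1 of the 3 Mpst KO HFD libraries or without WT HFD replicate 2, and that of Lipa without Mpst KO HFD replicate 2 or 3 or WT HFD replicate 2. Their edgeR adjusted p in those fits ranged from 0.0502 to 0.149, with log2 fold changes of at least 1.07 for Gk and Lipa, 0.59 for Rab18 and Prkacb, and from −0.63 to −0.56 for Tmem159. Without both muscle-rich libraries none of the 5 passed (edgeR adjusted p = 0.268 to 0.314). Once trends on GC content and length were removed, Rab18 was at a log2 fold change of 0.43 (edgeR adjusted p = 0.0519) and Tmem159 at −0.56 (0.0601). Tmem159 was at −0.33 (edgeR adjusted p = 0.101) with scaling to adipocyte transcripts and at −0.45 (0.0930) with libraries thinned to the smallest.

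**Figure D4:**
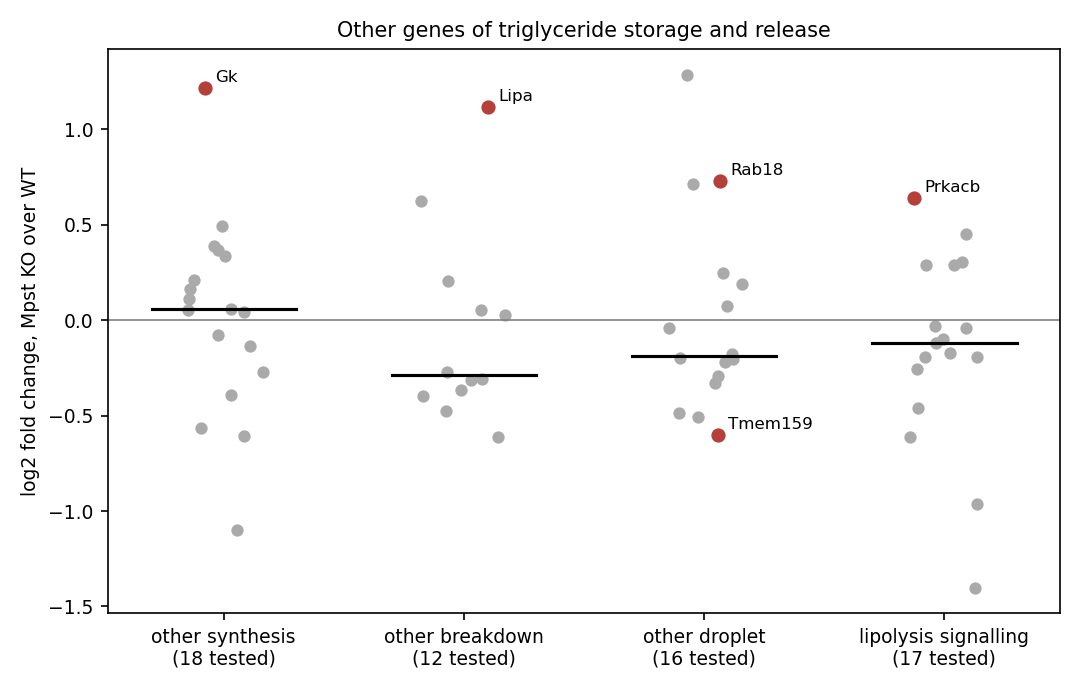
Log2 fold change of Mpst KO over WT for the tested genes of 4 lists. Red, named points passed the test over all genes, grey points did not, and lines give the medians of 0.06, −0.29, −0.19 and −0.12. The called genes lie above 0 except Tmem159.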

How the data were processed

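Tools named in the submitters' processing notes, with no stated role, are HISAT2 2.1.0 (an aligner), HTSeq 0.13.5 (a counter) and DESeq2 1.26, with the build mm10. Annotation and counter settings were not given in the sources used here. Raw counts per gene symbol, 1 file a library, were deposited by the authors. The counter's summary lines entered neither library sizes nor tests. The line for reads in no feature made up 8.85% to 14.7% of reads placed uniquely. Genes were filtered with filterByExpr, scaled by trimmed mean of M-values and tested in R 4.3.3 with edgeR 4.0.16 (robust quasi-likelihood F test, no covariates, 6 libraries, Benjamini-Hochberg over 14065 genes, threshold 0.05). Standard errors are log2 fold changes over the square root of F, and 95% intervals use edgeR's total degrees of freedom. Scores used log2 of CPM plus 0.5. Exon lengths and positions came from GENCODE M21 on GRCm38. The procedure was run on simulated counts with independent libraries and larger changes than those of the 10 members. That run therefore does not measure error rates for the members. The members, lists and alternatives were chosen with earlier results of these data known. Named genes were the 10 members, Mpst, and the called genes of 4 lists. Cell type markers came from lists, and 4732471J01Rik, Egfl7 and Gm26588 were named for their overlap with members. Other names are marked as picked with values known. Alternatives included DESeq2 1.42.0 and limma-voom (limma 3.58.1). Libraries within each group differed beyond sampling noise (median ratio 3.27 to 23.1), so none was treated as a copy.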

Additional observations from a re-analysis of the deposited data

How the results depend on the processing

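As reported, the test called 669 genes higher and 373 lower in Mpst KO HFD, 1 of the 10 members lower, and 4 other pathway genes higher and 1 lower. In that order, scaling to adipocyte transcripts gave 2271, 122, 0, 8 and 0. DESeq2 gave 1074, 894, 2, 7 and 5, and the replicate block gave 1387, 1289, 2, 7 and 8. Thinning to the smallest library gave 445 and 232 over all genes and 0 pathway genes lower, and removing the trend on GC content and length, an alternative added after seeing the data, gave 395 and 400. Leaving out the 2 libraries highest in muscle transcripts (Mpst KO HFD replicate 3 and WT HFD replicate 2, also added later) gave 0, 1, 0, 0 and 0. With each library left out the counts ranged from 0 to 1434, 1 to 1167, 0 to 2, 0 to 8 and 0 to 5. The share of higher calls was 64.2% as reported, 94.9% with adipocyte scaling, 54.6% with DESeq2, 51.8% with the block and 49.7% with the trend removed. The cause of these shifts was not tested. No member rose in any of the 19 alternatives. Lipe stayed below 0 in all of them (−0.80 to −0.42) and was called in 13, and Pnpla2 stayed below 0 (−0.90 to −0.43) and was called in 3. The groups do not overlap in these genes, so a kept direction adds no support. Signs reversed with adipocyte scaling for Gpam (0.082), Lpin1 (0.17), Dgat1 (0.0019), Mgll (0.00061) and Cidec (0.20), and for Cidec without the muscle-rich libraries (0.082) and with the trend removed (0.13). With each library left out, Agpat2 ranged from −0.024 (without WT HFD replicate 3) to 0.31, Lpin1 from −0.19 to 0.027 (without WT HFD replicate 3, and 0.025 without Mpst KO HFD replicate 1), and Cidec from −0.12 to 0.056 (without WT HFD replicate 2). The correlations of same-numbered libraries were 0.22, −0.06 and 0.36. Mpst KO HFD replicates 1, 2 and 3 correlated best with WT HFD replicates 1, 1 and 3. With 3 libraries a group, these values cannot settle whether replicate numbers pair libraries. Under the replicate block Pnpla2 passed (log2 fold change −0.68, edgeR adjusted p = 0.0199).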
